A study of Mus musculus with 32 samples.

Results

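The high-mobility-group (HMG) genes and the histone gene H2afx were followed in RNA from mouse cells of the parathyroid, the gland that secretes parathyroid hormone. The set holds 10 of the 35458 genes in the tables, taken by symbol: Hmgb1, Hmgb2 and Hmgb3, Hmgn1, Hmgn2, Hmgn3 and Hmgn5, Hmga1 and Hmga2, and H2afx. Several of them were picked because they stood high in cells grown in a rat host, so that contrast is given below as a description with no test. The data are 32 libraries in 8 experiments of 4 biological replicates, each library made from 10 to 20 tdTomato-positive cells picked by hand, with cDNA made by the SMART-Seq HT kit. Control cells came from C57BL/6-Pthtm1(P2A-tdTomato)/+ mice, males of 8 weeks in experiment 1 and females of 11 weeks in experiment 2. Mouse-host cells came from Gcm2-/- mice on a BDF1B6 background that had been complemented with Pth-tdTomato mouse embryonic stem cells (ESCs), at 9 weeks, females in experiments 1 to 3 and males in experiment 4. Rat-host cells were mouse cells too, from a Gcm2-/- Wistar rat complemented with the same kind of ESCs; these libraries are labelled neonate, with sex unknown. Graft cells were ESC-derived cells after grafting, labelled with the mouse-host genotype, male and 12 weeks. The reporter sits in Pth, so every group is a selection of cells that transcribe Pth, and the host species and the neonatal age of the rat-host group cannot be told apart. The rat-host and graft groups are 1 experiment each.

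HMG proteins are small, abundant chromatin proteins in 3 families. HMGB proteins bend DNA through HMG boxes, HMGN proteins bind the nucleosome core and compete with linker histone H1, and HMGA proteins hold AT-rich DNA through AT hooks. H2AX, the product of H2afx, is the H2A variant whose tail is phosphorylated around DNA double-strand breaks; Hmgb2 and H2afx are known for high levels in dividing cells, and Mki67 is a common marker gene of such cells.

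The sequences shown are the start-site regions of Hmgb2 and Hmgn2, which stood high in rat host, and of Hmgb1, which did not. Whether these regions have a part in that difference was not tested. Each runs from 250 bases before to 50 bases after a RefSeq start on GRCm38.p6, 5′ to 3′ on the gene's strand. Capitals mark CCAAT boxes (CCAAT), CHR elements (TTTGAA) and GC boxes (GGGCGG) found on either strand; none of the 3 motifs overlaps another in these windows.
Hmgb2, chr8:57511593-57511892, plus strand: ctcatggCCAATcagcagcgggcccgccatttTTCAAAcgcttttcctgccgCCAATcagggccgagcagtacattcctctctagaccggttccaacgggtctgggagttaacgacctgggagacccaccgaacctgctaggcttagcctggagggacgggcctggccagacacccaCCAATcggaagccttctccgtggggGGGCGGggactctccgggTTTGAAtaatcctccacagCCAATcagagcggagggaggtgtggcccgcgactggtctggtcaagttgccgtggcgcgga
Hmgn2, chr4:133967942-133968241, minus strand: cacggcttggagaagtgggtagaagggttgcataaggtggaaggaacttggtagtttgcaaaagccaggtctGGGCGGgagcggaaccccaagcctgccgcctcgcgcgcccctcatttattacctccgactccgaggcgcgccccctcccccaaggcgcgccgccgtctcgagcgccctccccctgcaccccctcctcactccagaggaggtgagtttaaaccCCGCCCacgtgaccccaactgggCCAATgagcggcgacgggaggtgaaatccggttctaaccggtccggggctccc
Hmgb1, chr5:149053008-149053307, minus strand: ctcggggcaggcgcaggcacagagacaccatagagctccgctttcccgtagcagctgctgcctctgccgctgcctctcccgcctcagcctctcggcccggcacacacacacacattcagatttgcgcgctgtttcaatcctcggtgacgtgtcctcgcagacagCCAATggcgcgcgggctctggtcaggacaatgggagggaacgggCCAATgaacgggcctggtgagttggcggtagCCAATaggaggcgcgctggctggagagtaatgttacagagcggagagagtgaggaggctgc
The Hmgb2 window held 4 CCAAT boxes, at -243, -198, -73 and -11 from the start, and 2 CHR elements, at -218 and -30. A CCAAT box together with a CHR element, a pairing known from promoters of cell-cycle genes, occurred in 6.95% of 32851 RefSeq promoter windows of the same length; a CCAAT box occurred in 37.4% and a CHR element in 17.9%. Among the 8 members with a promoter in the table, Hmgb3 also held both motifs, with 3 CCAAT boxes and 1 CHR element. The rat-host difference of Hmgb3 from mouse host was 0.28 on the log2 scale (SE 0.24). The Hmgn2 window had 1 CCAAT box, at -3, and 2 GC boxes, and the Hmgb1 window had 3 CCAAT boxes; neither held the CHR letters. The table gives Hmgb1 a second start, not shown, at chr5:149051567-149051866, whose window had 4 GC boxes and neither of the other motifs. The E2F letters TTTCGCGC or TTTGGCGC, present in 0.813% of windows, were in none of the members' windows. H2afx and Hmgn3 were not in the promoter table. For H2afx the coding sequence of 432 bases can be shown at its end, where capitals mark the 4 codons of the tail motif that carries the phosphorylated serine.
H2afx, last 48 coding bases: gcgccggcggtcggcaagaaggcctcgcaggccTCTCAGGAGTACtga

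Depth differed by experiment: control experiment 1 was deepest, at 29471254 reads or more and at most 32264864, and no library elsewhere passed 15098391 or fell under 9470744. Each library had reads for 11566 to 13445 genes. Levels are given as CPM (a gene's reads as a share of its library, scaled to a common total), or as TPM, which is scaled by transcript length too, where genes are compared with each other. The 4 parathyroid markers Pth, Chga, Gcm2 and Casr were read in every group; their summed level was 156647 to 176565 CPM in rat host against 257144 to 366918 CPM in the other 28 libraries. Pth itself was 42200 to 45403 CPM in rat host and 71456 to 136900 CPM elsewhere. Markers of other cell types were low in rat host: macrophage markers were at 0 in all 4 libraries, and the summed levels reached 0.876 CPM for 7 thymocyte and T cell genes, 0.881 CPM for 6 erythroid genes, 0.219 CPM for 4 endothelial genes and 11.9 CPM for 6 fibroblast genes. They reached 3.89 CPM for 5 thyroid follicular and C cell genes and 0.438 CPM for 4 B cell genes. In the comparison groups single libraries held more: the summed fibroblast genes reached 3123 CPM in a control, 2320 CPM in a mouse-host and 411 CPM in a graft library, with medians of 2.15, 0.657 and 52.5 CPM, and macrophage genes reached 55.2, 13.7 and 19.1 CPM. Their part in the results was not tested. In bulk samples, fewer cells of a kind and less RNA per cell cannot be told apart.

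In adult mouse-host cells Hmgb1 was the most abundant member, at 419 ± 25.3 TPM (SD over 4 experiments). Hmgn1 at 115 ± 9.09, Hmgn2 at 107 ± 32.2 and Hmgn3 at 92.0 ± 16.02 TPM came next; these neighbours did not differ beyond their spread, except that the intervals of Hmgn1 and Hmgn3 met only at their edges. Hmgb3 followed at 65.2 ± 10.1 TPM. Hmgn5, an HMGN protein with a long acidic tail, at 27.1 ± 6.77 TPM and H2afx at 20.9 ± 3.03 TPM overlapped, as did Hmga1 at 10.4 ± 0.299 and Hmgb2 at 8.85 ± 2.87 TPM. Hmga2, a gene known from fetal tissue, was near 0: all 32 libraries together held 91 reads, 56 of them in mouse host, 18 in control, 15 in graft and 2 in rat host. The order differed in rat host, where Hmgn2 stood at 572 ± 220.0 TPM (SD over 4 libraries) beside Hmgb1 at 528 ± 100.4, H2afx at 170 ± 105, and Hmgb2 at 74.4 ± 51.8 TPM. The summed TPM of the members was 1243 to 2210 in rat host and 709 to 1248 in the other libraries, so that the lowest rat-host library lay inside the others' range. TPM shares a fixed total among all genes, and Pth averaged 144801 TPM in rat host against 225760 in mouse host. The part of this in the other genes' TPM was not tested. In CPM, Hmgb1 averaged 458 in both groups.

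**Figure D1:**
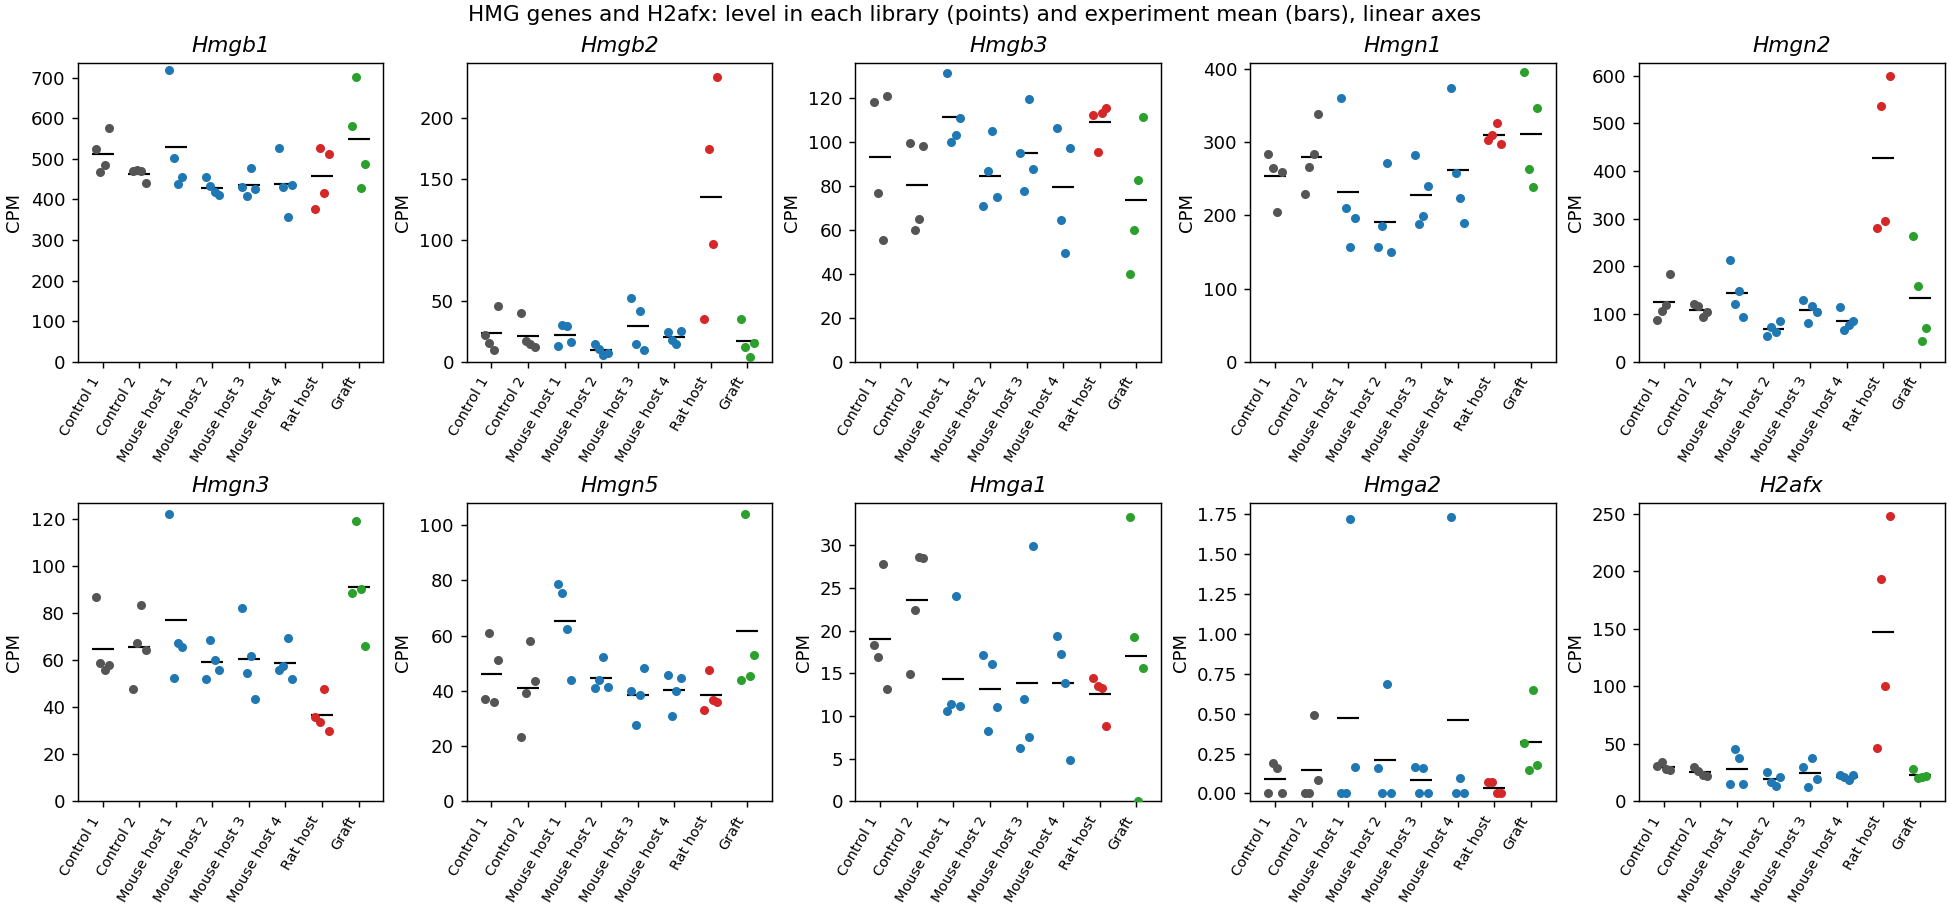
Level of each gene in CPM (linear axes) for the 4 libraries of each of 8 experiments; points are libraries and bars the experiment means. Hmgb2, Hmgn2 and H2afx reach 234, 598 and 248 CPM in rat host, and Hmgn3 is lowest there, while Hmgb1, Hmgb3, Hmgn1, Hmgn5 and Hmga1 in rat host lie within the range of the other groups.

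H2afx stood at 46.0, 194, 100.3 and 248 CPM in rat-host replicates 1 to 4. In control cells it ran from 21.7 through a median of 27.3 to 34.2 CPM, in mouse-host cells from 12.5 through 21.2 to 45.2 CPM, and in graft cells it was 28.1, 20.4, 21.2 and 22.2 CPM. Every rat-host library was above every other library, but in CPM replicate 1 only just: the next value, 45.2 CPM, was mouse-host experiment 1 replicate 2. In TPM these 2 libraries stood at 52.6 and 38.9. The fitted difference from mouse host was 2.73 on the log2 scale (SE 0.25), a 6.62-fold higher level. The tables hold 1 transcript of it, and no transcript of another gene was a near copy of that.

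Hmgn2, a nucleosome-binding protein, stood at 281, 536, 295 and 598 CPM in rat-host replicates 1 to 4. Control cells ran from 87.8 through 112 to 185 CPM and mouse-host cells from 54.5 through 89.4 to 214 CPM. The graft values, the most spread outside rat host, were 264, 160, 43.4 and 70.6 CPM and included both the highest and the lowest of the 28 libraries outside rat host. All 4 rat-host libraries were above all others, with replicate 1 close to graft replicate 1 in CPM. In TPM these 2 libraries stood at 369 and 263. The fitted difference from mouse host was 2.16 (SE 0.31), a 4.45-fold higher level, and transcript Hmgn2-203 carried 98.7% of the reads in rat host and 97.0% in mouse host.

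Hmgb2 stood at 35.2, 175, 96.7 and 234 CPM in rat-host replicates 1 to 4. Control cells ran from 9.84 through 16.6 to 45.9 CPM, mouse-host cells from 5.28 through 15.7 to 52.5 CPM, and graft cells were at 35.4, 12.3, 4.15 and 15.4 CPM. Thus 3 of the 4 rat-host libraries were above all others, and replicate 1 lay among the highest libraries of the other groups. Replicate 1 by itself was above all 28 others for 4.86% of genes. The share of genes with 3 of the 4 rat-host libraries above all others was not computed. The fitted difference from mouse host was 2.82 (SE 0.44), a 7.04-fold higher level. Replicates 1, 3, 2 and 4 were in the same rising order for H2afx, Hmgn2, Hmgb2 and Mki67, which was 5.76, 21.8, 50.4 and 136 CPM in that order.

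Hmgn3, an HMGN protein known from endocrine and neural tissue, was low in rat host in CPM. It stood at 35.8, 33.8, 47.8 and 29.8 CPM in rat host, against 47.8 to 87.1 CPM in control cells (median 61.6), 43.4 to 122 CPM in mouse host (median 58.8) and 88.7, 119, 90.3 and 66.1 CPM in graft. Of the 4 rat-host libraries, 3 were below all 28 others in CPM, and replicate 3 was within the low end of the adult range. The share of all genes with 3 of these 4 libraries below all others was not computed. In TPM the rat-host values were 62.5, 86.8, 79.2 and 50.7, and the lowest elsewhere was 59.3, in mouse-host experiment 3 replicate 4. On that scale only replicate 4 was below all others. The fitted difference from mouse host was -0.74 (SE 0.25), and it was -0.38 on log2(TPM + 1), a scale on which the median of all genes stood at 0.20 rather than -0.03. The reads were split over transcripts Hmgn3-201, Hmgn3-202 and Hmgn3-203, at 28.1% ± 6.92, 29.0% ± 8.10 and 38.0% ± 17.4 in rat host and 33.4% ± 9.13, 24.3% ± 6.31 and 39.5% ± 10.4 in mouse host (SD over libraries), which overlap.

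The remaining members showed smaller differences in rat host. In CPM, Hmgn1 was 298 to 326 there, a narrow range inside that of the 28 others (150 to 396 CPM), with a difference from mouse host of 0.49 (SE 0.19). In TPM it was 193 to 214 in rat host, above all 28 others, whose highest was 191 in graft replicate 1. Hmgb3 was 89.6 to 105 TPM in rat host, and its highest value elsewhere was 90.7 TPM. The share of all genes with such patterns in TPM was not computed. Hmgb3 differed by 0.28 (SE 0.24) and Hmgb1, the DNA-bending protein that also acts as an alarm signal outside cells, by 0.06 (SE 0.17). Among the alternatives with no library left out, the difference reached 0.81 for Hmgn1, 0.61 for Hmgb3 and 0.33 for Hmgb1. For Hmgn5 at -0.24 (SE 0.33) and Hmga1 at -0.12 (SE 0.37) the sign turned on log2(TPM + 1), to 0.11 and 0.16. The members were chosen from this contrast, so nothing is read from their count: over all 15698 genes tested on experiment sums, 0.643% were called between rat and mouse host, 34 genes higher (0.217%) and 67 lower (0.427%). On log2(TPM + 1) the split was 518 higher and 74 lower. All 4 rat-host libraries were above all 28 others for 1.26% of 13135 genes, and below them for 0.982%.

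Reads of Hmgb2 and Hmgb1 may be shared with processed pseudogenes, and their levels are uncertain for that reason. Among transcripts with at least 95% identity to a member over at least 300 bases, those of 5 other genes matched Hmgb2 and those of 43 matched Hmgb1. The tables gave these copies 43.3% as many reads as Hmgb2 itself, nearly all on Gm4739, and 26.1% as many as Hmgb1, mostly on Gm15387. Gm4739 stood at 11.7, 77.6, 41.6 and 98.2 CPM in rat-host replicates 1 to 4 and at 1.30 to 35.8 CPM elsewhere. With the copies added to the genes, an alternative chosen after the data were seen, the rat-host difference was 2.81 for Hmgb2 and 0.10 for Hmgb1. The HMGB coding sequences themselves were less alike, at 78.8% identity between Hmgb1 and Hmgb2, and for the other members near copies took at most 0.0686% as many reads over the 32 libraries, and at most 0.324% (Hmgn5) in rat host.

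**Figure D2:**
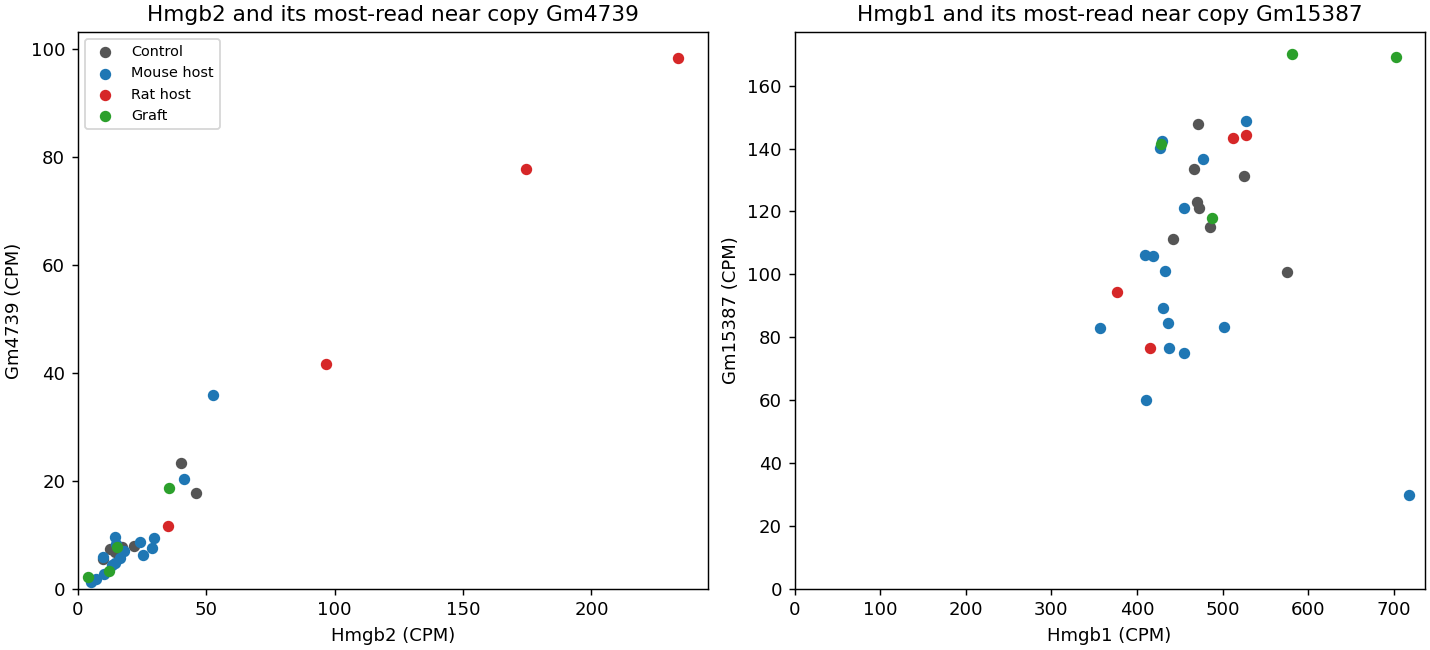
Level in CPM of Hmgb2 against Gm4739 (left) and of Hmgb1 against Gm15387 (right), 1 point per library, linear axes, coloured by group. Gm4739 and Hmgb2 are both high in rat-host replicates 2 to 4, while in mouse-host experiment 1 replicate 1 Hmgb1 is highest, at 718 CPM, and Gm15387 lowest, at 29.7 CPM.

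Whether a member follows Mki67 from library to library was tested in the 28 libraries outside rat host, with experiment held constant. Mki67 there took 2 levels: 19 libraries had at most 0.433 CPM and 9 had 5.19 to 35.9 CPM, so the slope rests on a step between those sets and no correlation is given. No member passed (edgeR quasi-likelihood test, Benjamini-Hochberg adjustment over 12896 genes); 5 genes did, all rising with Mki67, which is 0.0388% of those tested. The 5 were Melk, Top2a, Stmn1, Espl1 and Cdca3, named after their values were seen. Hmgb2 had the steepest slope of the 9 members tested, 0.27 log2 units per log2 unit of Mki67 (SE 0.076, adjusted p = 0.369), against 1.96 (SE 0.31, adjusted p = 0.0074) for Top2a, the topoisomerase of dividing cells. The Hmgb2 slope passed with DESeq2 (0.27, adjusted p = 0.0266). The size of a slope depends on the scale of the marker: with a pseudocount of 10 the slopes were 0.72 for Hmgb2, 0.35 for Hmgn2 and 0.22 for H2afx, and per log2 unit of the summed mitosis genes 0.19, 0.084 and 0.075. Hmgn2 had a slope of 0.14 (SE 0.050, adjusted p = 0.721), which was 0.024 in mouse-host libraries alone, and H2afx a slope of 0.085 (SE 0.056, adjusted p = 1.00), which was 0.14 in mouse-host libraries alone. The other 6 slopes lay between -0.026 and 0.025.

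In single libraries the 2 sets overlapped for all 3 members with the steepest slopes. Hmgb2 was 12.3 to 52.5 CPM in the 9 libraries with the higher Mki67 and 4.15 to 29.9 CPM in the 19 others, and its highest value outside rat host was in mouse-host experiment 3 replicate 1, which also had the most Mki67. H2afx was 18.5 to 37.7 CPM in the 9 and 12.5 to 45.2 CPM in the 19, with the highest value in a library of low Mki67; Hmgn2 was 66.1 to 264 and 43.4 to 214 CPM.

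**Figure D3:**
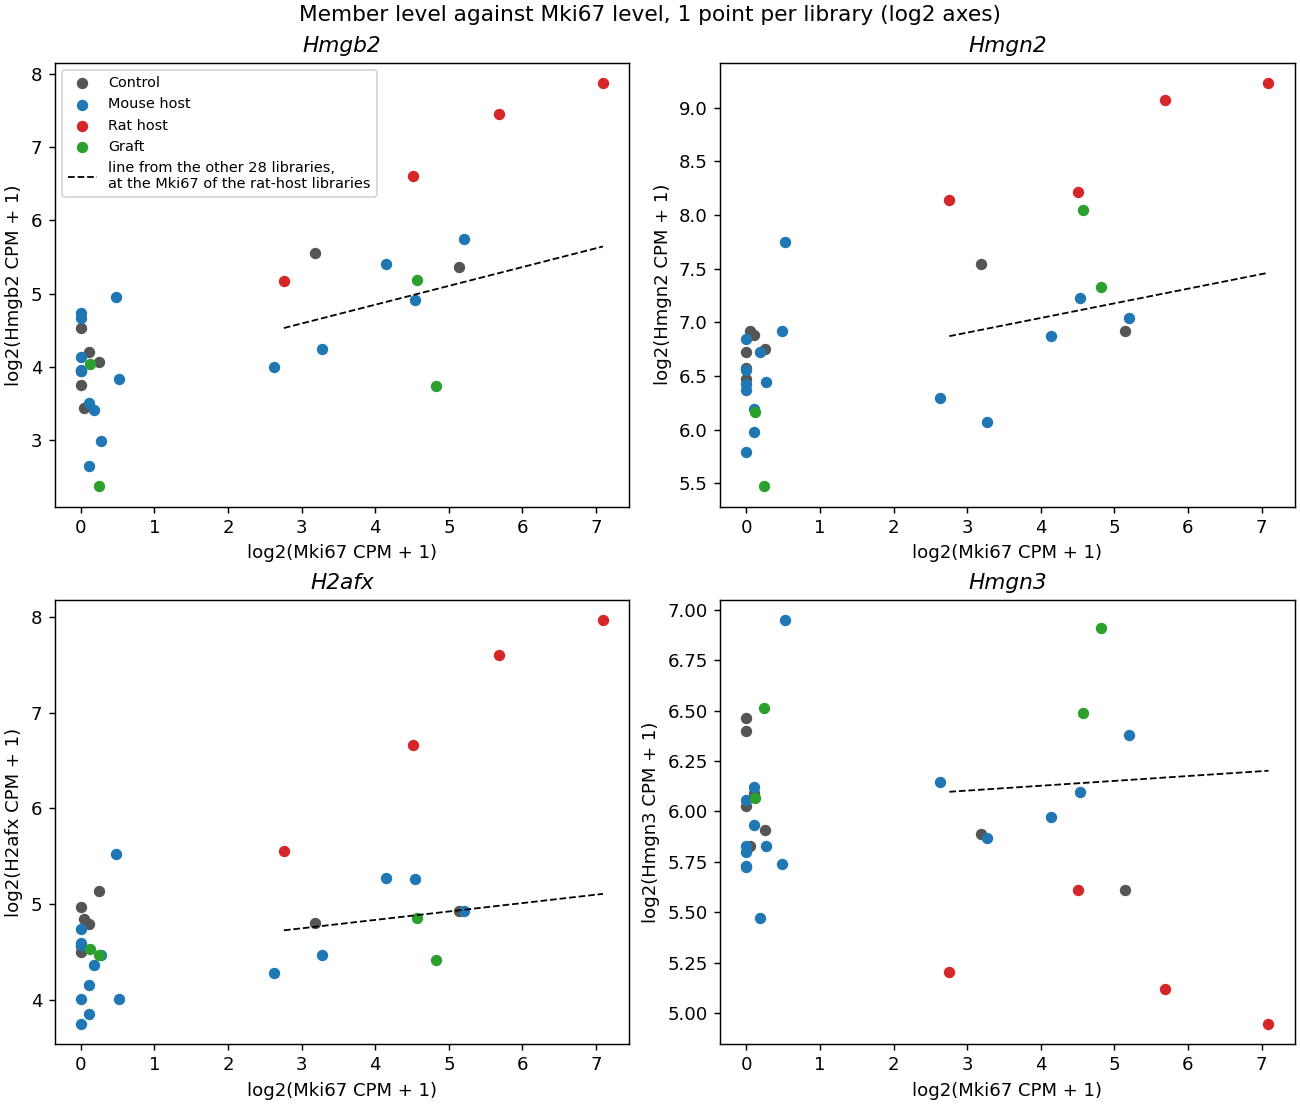
log2(CPM + 1) of Hmgb2, Hmgn2, H2afx and Hmgn3 against log2(CPM + 1) of Mki67, 1 point per library, coloured by group; the dashed line is fitted within experiments to the 28 libraries outside rat host and drawn at the Mki67 levels of the rat-host libraries. The 4 rat-host points lie above the line for Hmgb2, Hmgn2 and H2afx and below it for Hmgn3.

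The distances of the rat-host libraries from that line are a description, as the members were chosen from this contrast. They were not computed for all genes, so no count of members is read from them. H2afx exceeded the line by 0.83, 2.62, 1.78 and 2.85 log2 units in replicates 1 to 4, Hmgn2 by 1.27, 1.80, 1.10 and 1.77, and Hmgb2 by 0.65, 2.18, 1.63 and 2.23. Taken by rising Mki67 (replicates 1, 3, 2 and 4), the distances of H2afx and Hmgb2 rose at each step, while those of Hmgn2 did not. For H2afx and Hmgb2 the distance was thus itself larger where Mki67 was higher. Whether the distances are independent of Mki67 within rat host was not tested. Hmgn3 was under it by values of -0.89, -1.05, -0.53 and -1.25. Hmgn1 exceeded it by 0.35 to 0.49 and Hmgb3 by 0.29 to 0.60. Replicates 2 and 4 had more Mki67 than any library behind the line, so their values extend it beyond its data; replicates 1 and 3 lie within it.

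With Mki67 as a term in a fit over all 32 libraries, the rat-host difference was smaller for the 3 high members and little altered for the others. It was 2.10 (SE 0.36) for H2afx against 2.66 without the term, 1.504 (SE 0.30) for Hmgn2 against 2.13, and 1.56 (SE 0.46) for Hmgb2 against 2.84. Hmgn3 was at -0.83 (SE 0.25) against -0.78, Hmgn1 at 0.52 (SE 0.22) against 0.45 and Hmgb1 at -0.10 (SE 0.14) against 0.01. As the term, the summed mitosis genes gave 2.06, 1.60 and 1.64 for H2afx, Hmgn2 and Hmgb2. In that fit 4.13% of 13135 genes differed with the term. A straight line in Mki67 need not describe how these genes vary with the share of dividing cells, and that was not tested.

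**Figure D4:**
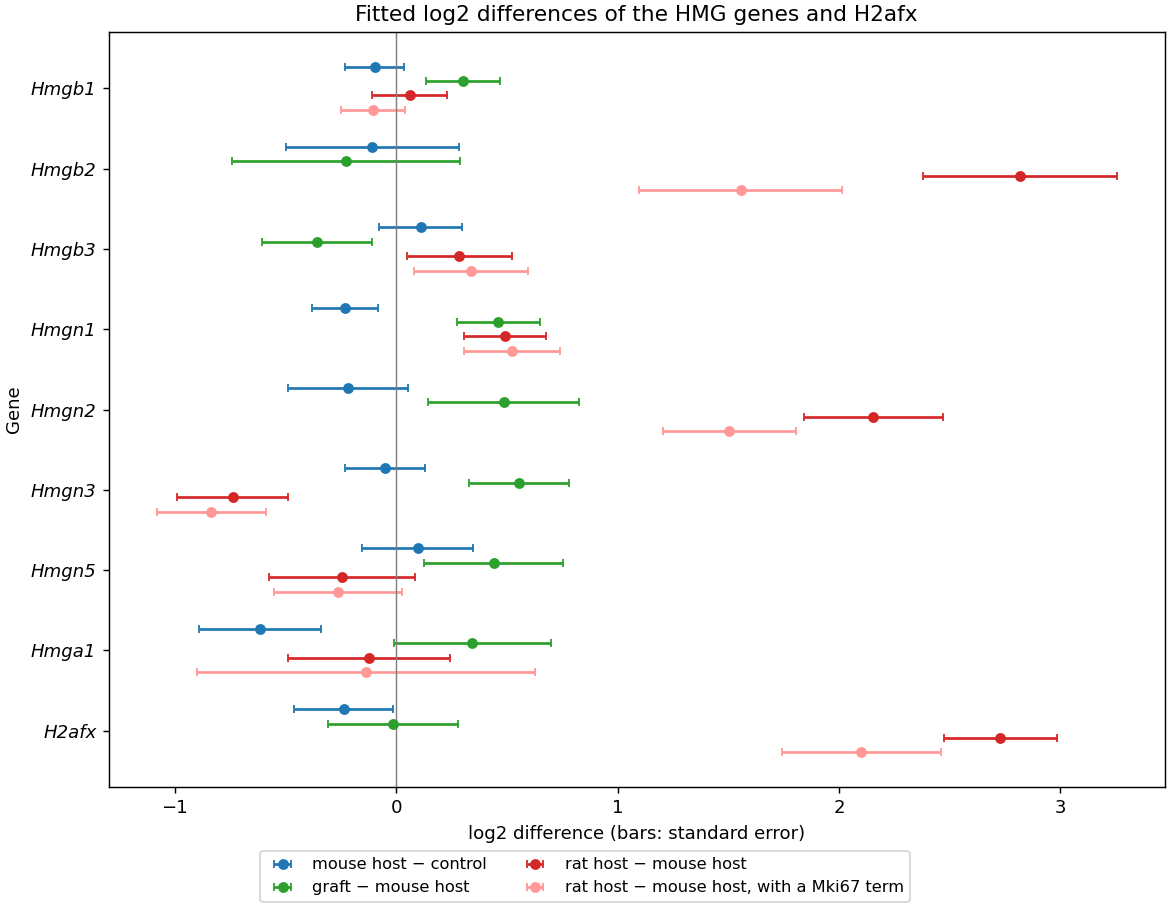
Fitted log2 differences of 9 members (Hmga2 has too few reads) for 4 comparisons, with bars of 1 standard error. The rat-host points of Hmgb2, Hmgn2 and H2afx lie at 2.16 to 2.82 in the fit on experiment sums. With a Mki67 term, in the fit on single libraries, they lie at 1.504 to 2.10. That fit without the term, not drawn, gave 2.13 to 2.84. The mouse-host and graft points lie between -0.61 and 0.55.

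Genes that work with these members were read from lists made with earlier results of these data known. Mitosis genes stood at a median of 3.64 log2 units above mouse host in rat host, with all 15 positive, and DNA replication genes at 1.57, again with all 15 positive, against -0.03 over all genes; none of either list passed the test over all genes. H2A variants and linker histones had a median of 1.07, with 10 of 12 positive. Of the positive ones, H1fx, Hist1h1a, Hist1h1b and Hist1h1d averaged at most 2.46 CPM in rat host, each with an SE of 2.06 or more. Hist1h1c, at 71.0 CPM in rat host, was at -0.69 (SE 0.35). Examples, picked after their values were seen, are H1f0, the linker histone of cells that have stopped dividing, at 1.03 (SE 0.21) and H2afz, another H2A variant, at 1.11 (SE 0.30), while the replacement variant H2afj was at -0.34 (SE 0.20). Histone chaperones had a median of 0.58 (13 of 14 positive), the genes of the H2AX damage response, such as the H2AX kinase gene Atm at 0.04 (SE 0.86) and the tail reader Mdc1 at 0.48 (SE 0.64), a median of 0.39 (13 of 15 positive), and other HMG-box genes a median of 0.23 (10 of 14 positive). The list of receptors and partners of secreted HMGB1 had a negative median, -2.83, with 4 of 6 negative; Tlr4, a receptor for HMGB1, averaged 6.12 CPM in mouse-host cells against 0.0184 CPM in the rat-host libraries (adjusted p = 0.0964). The HMGB1 list had nearly the same median in graft against mouse host, -2.80, with 5 of 6 negative. No gene of these lists passed in the rat-host contrast.

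Hmga2 stayed near 0 in rat host, where several fetal genes often read beside it were detected. The RNA-binding protein genes Igf2bp1, Igf2bp2 and Igf2bp3 averaged 4.99, 27.1 and 26.7 CPM in rat host against 0.0043, 6.13 and 1.59 CPM in mouse host, and Lin28b, which blocks let-7 processing, 4.06 against 0.437 CPM. All 7 genes of that list measured were positive in rat host (median 3.10), with none past the test. Hmga2 was 0.0730, 0.0707, 0 and 0 CPM in the same 4 libraries.

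Native control and adult mouse-host cells could be compared without the rule's contrast. None of the 10 members passed the test (edgeR, adjusted over 15698 genes), nor did any gene (0%); 691 genes had an unadjusted p under 0.05, and DESeq2 called 119 genes. Hmga2 was at 1.39, with a standard error (1.78) above the value itself. Hmga1, the AT-hook protein, had the widest difference of the other 9, -0.61 (SE 0.28, adjusted p = 0.892), from 21.3 ± 3.22 CPM (SD over 2 experiments) in control to 13.8 ± 0.503 CPM (SD over 4 experiments) in mouse host, with single libraries overlapping at 13.2 to 28.7 and 4.85 to 29.9 CPM. The remaining 8 lay between -0.24 and 0.11, with standard errors of 0.13 to 0.39. The median of the members was -0.10, beside 0.0048 over all genes.

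Graft cells were compared with mouse-host cells, the same 16 libraries that served above. No member passed, and 0.115% of all genes did, 3 higher and 15 lower in graft; on log2(TPM + 1) 200 were higher and 59 lower. Hmgn3 was at 0.55 (SE 0.23, adjusted p = 0.384), opposite in sign to its rat-host value, and Hmgn1 at 0.46 (SE 0.19, adjusted p = 0.372); Hmgb1 was at 0.30 (SE 0.17, adjusted p = 0.515) and H2afx at -0.01 (SE 0.29, adjusted p = 1.00). The graft values of Hmgn2 (0.48, SE 0.34) and Hmgn5 (0.44, SE 0.31) each rested on 1 library, being -0.05 without graft replicate 1 and 0.0021 without graft replicate 2. Hmga1 had no read in graft replicate 3 and 33.3 CPM in graft replicate 1. The 6 positive and 4 negative members had a median of 0.32, beside -0.09 over all genes. With 1 graft experiment, its spread between experiments is taken from the other groups.

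In the lists, too, no gene passed in these 2 comparisons. DNA replication genes had a median of -1.96 in graft against mouse host, with 12 of 15 negative, and 0.27 in mouse host against control, with 10 of 15 positive. Mitosis genes had medians of -1.71 in graft, with 9 of 15 negative, and -0.19 in mouse host, with 9 of 15 negative. For H2A variants and linker histones the medians were 0.20 in graft and -0.04 in mouse host, for histone chaperones 0.0088 and -0.19, for the H2AX damage response -0.09 and -0.13, and for the genes around HMGA2 0.64 and 0.02. The list gene nearest to the threshold in graft was Chaf1b, a subunit of the assembly factor that loads histones behind replication forks, at 0.0650 CPM in graft and 16.6 CPM in mouse host (adjusted p = 0.0710). Among other HMG-box genes, with a median of -0.44 and 10 of 14 negative in graft and -0.03 with 8 of 14 negative in mouse host, Ssrp1, the HMG-box subunit of the chaperone FACT, was at -1.13 (SE 0.31, adjusted p = 0.206). Linker histone gene Hist1h1c had the smallest p of its list in both comparisons, at 0.55 (SE 0.27, adjusted p = 0.892) in mouse host against control and 0.72 (SE 0.32, adjusted p = 0.418) in graft. Anp32e, a chaperone that removes H2A.Z from nucleosomes, was at -0.53 (SE 0.21, adjusted p = 0.892) and 0.90 (SE 0.26, adjusted p = 0.229). Receptors and partners of secreted HMGB1 were scarce, with 6 of 9 tested, and Tlr2 at 6.99 CPM and Ager at 0.502 CPM in mouse host. Their medians were -2.80 in graft, with 5 of 6 negative, and -0.09 in mouse host, with 3 of 6 negative.

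Among the 4 mouse-host experiments 1.35% of 12195 genes differed, and no member did. Hmgn2 came nearest (adjusted p = 0.121), with experiment means from 68.7 to 144 CPM; DESeq2 placed it past the threshold (adjusted p = 0.0049). Between control experiments 1 and 2, which differ in sex, age and depth, 0.0173% of 11544 genes differed and no member, with H2afx at -0.23 (SE 0.31) and Hmgb2 at -0.14 (SE 0.57) in experiment 2. Within mouse host, experiment 1 replicate 1 held the highest Hmgb1 (718 CPM), Hmgb3 (132 CPM) and Hmgn3 (122 CPM) of the 28 libraries outside rat host. In TPM this held for Hmgb3 and Hmgn3 but not for Hmgb1, at 444 against 561 in mouse-host experiment 3 replicate 3.

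The genes closest in pattern to each member were taken by Pearson correlation of log2(CPM + 1) over the 32 libraries. Only genes averaging at least 8 CPM were compared. The rat-host libraries are among the 32, so likeness between the members high there follows in part from how they were chosen. Hmgb2 and H2afx were each other's closest (r = 0.86), followed for Hmgb2 by Fam83d and Cdca2 (both 0.85), and for H2afx by Cdh3 and Aurkb (both 0.82). Hmgn2 was closest to Hmgb2 (0.82), H2afz (0.80) and Ptma (0.78). Hmgn3 was closest to Gabarapl2 (0.81), Cetn4 and Selenok (both 0.77), and Hmgn1 to Cacybp (0.76), Arf1 (0.74) and H3f3a (0.71). The closest to Hmgb1 were Snrnp27 (0.72), Pfdn1 (0.68) and Ndufb6 (0.66), and to Hmgb3 Mad2l2 (0.72), Itgb5 (0.67) and Ints9 (0.66). For Hmga1 they included Eif3f (0.70) and Thap4 (0.68), for Hmgn5 Cldn8, Sar1b and Atp6v1f (0.65 to 0.69), and for Hmga2, with its few reads, Eef1b2, Lamtor2 and Hadhb (0.63 to 0.67). These values describe libraries that share depth and preparation, and the rat-host libraries weigh heavily in those of Hmgb2, H2afx and Hmgn2.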

How the data were processed

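Per the file headers, the authors' deposited tables hold the estimated count, TPM and effective length of each transcript, as Salmon writes them; per the submitters' processing notes the build was GRCm39. Neither Salmon's version nor the annotation is given in the sources used here. Counts of 115685 of 116747 transcripts were summed by GENCODE M21 gene names and rounded; the other 1062 transcripts (0.493% of reads) were left out. Groups were tested on sums over each experiment's 4 libraries, with 1 coefficient per group (edgeR 4.0.16 quasi-likelihood, TMM, filterByExpr, R 4.3.3), leaving 4 residual degrees of freedom; the slope on log2(Mki67 CPM + 1) and comparisons within a group used single libraries. A gene was called at a Benjamini-Hochberg adjusted p under 0.05 over all genes tested. All 10 members passed the filter on sums, and all but Hmga2 in the single-library fits. SMART-Seq HT does not mark strand, so antisense reads cannot be told apart. The labels call replicates biological; they name no animals, so p-values within an experiment measure the spread of these samples. No 2 libraries of an experiment were alike within sampling noise (lowest chi-square per degree of freedom over 48 pairs: 41.0). Members and lists were chosen with earlier results of these data known. Every member is named, with the 3 genes most like each by correlation; lists give counts in each direction and genes among the 3 with the smallest p. Of the genes this rule names, 2 are not reported here. Alternatives were DESeq2 1.42.0, limma 3.58.1 on counts (voom) and on log2(TPM + 1), other scalings and filters, a replicate block and left-out libraries. Of the fits, only that on sums (graft against mouse host) and the slope fit were run on simulated counts. In the simulated slope fit the marker had a normal spread, unlike the step seen for Mki67.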

Additional observations from a re-analysis of the deposited data

Results flagged for a closer look

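In each experiment of 4 libraries, the highest or lowest value was marked where its gap to the next, divided by the whole range, passed Dixon's critical value. Of 88 sets of 4 values, a member or Mki67 in 1 experiment, 11 held such a value; chance alone gives about 1 in 20 for values with a normal spread, which levels near 0 do not have. For Mki67 the value was 8.11 CPM in control experiment 1 replicate 4 (others at most 0.189), 34.2 CPM in control experiment 2 replicate 1 (others at most 0.0767) and 22.2 CPM in mouse-host experiment 1 replicate 3 (others at most 0.433). The same library, mouse-host experiment 1 replicate 3, stood apart for Hmga1 at 24.0 CPM (others 10.6 to 11.4) and for Hmga2 at 1.72 CPM (others at most 0.163). Hmga2 was 1.74 CPM in mouse-host experiment 4 replicate 1 (others at most 0.0943) and 0.491 CPM in control experiment 2 replicate 3 (others at most 0.0840); these 3 Hmga2 values rest on 19, 19 and 6 reads. Hmgn5 was 104 CPM in graft replicate 2 (others 43.9 to 53.1) and Hmgn3 was 87.1 CPM in control experiment 1 replicate 1 (others 55.7 to 59.0). Low values were Hmgb3 at 95.7 CPM in rat-host replicate 2 (others 112 to 116) and Hmgb1 at 441.7 CPM in control experiment 2 replicate 4 (others 470.5 to 472.7).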

How the results depend on the processing

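The rat-host differences of H2afx, Hmgb2, Hmgn2 and Hmgn3 had the same sign in the alternatives run. H2afx ran from 2.34 to 3.02 with libraries or experiments left out, Hmgb2 from 2.40 to 3.13, Hmgn2 from 1.94 to 2.36 and Hmgn3 from -0.89 to -0.64, beside -0.38 on log2(TPM + 1). With the Mki67 term the same ranges were 1.90 to 2.50, 1.38 to 1.90, 1.40 to 1.64 and -1.004 to -0.71. Among the other settings of that fit the lowest values were 1.83 for H2afx, 1.29 for Hmgb2 and 1.41 for Hmgn2. No member was called in the other comparisons under any alternative run, except with DESeq2 (Hmgb2 on Mki67, Hmgn2 among mouse-host experiments, both given above). Depth limits Hmga2, which with 91 reads allows no statement on direction; with 1 rat-host experiment, no spread between such experiments was measured.

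Replicate numbers do not pair the libraries: over 112 pairs with the same number the mean correlation of deviations was -0.0058, and 0.0019 for other pairs. With the replicate block, the fits on single libraries called 4 genes in mouse host against control, 420 in graft and 820 in rat host against mouse host. Without the block, single libraries gave 14, 477 and 776. The Hmgb2 slope was 0.26 with the block.

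Counts over all genes depended on the tool, and the cause was not tested. DESeq2 called 119 genes in mouse host against control, 1019 in graft, 893 in rat host, 846 among mouse-host experiments, 125 between controls, 128 on Mki67 and 1004 in rat host with the Mki67 term. Limma with voom gave 42, 316 and 1043 in the first 3 of these, and on log2(TPM + 1) it gave 7, 259 and 592. With no filter on low counts 53 genes were called in graft, 173 in rat host and 20 on Mki67; with effective lengths as offset 6 in graft and 14 on Mki67. On Mki67, a pseudocount of 10 gave 3 genes, summed mitosis genes gave 28, and both leaving out the 2 libraries farthest in Mki67 and using mouse-host libraries alone gave 0. Without the Mki67 term 1145 genes were called in rat host.

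With libraries or whole experiments left out, the counts ran from 0 to 77 in graft (0 without mouse-host experiment 2, 3 or 4), 12 to 127 in rat host (12 without either control experiment), 19 to 202 among mouse-host experiments (19 without experiment 1), 0 to 4 between controls, 0 to 30 on Mki67 (0 without control experiment 1 replicate 4 or control experiment 2 replicate 1) and 292 to 578 in rat host with the Mki67 term (292 without rat-host replicate 1). Small values changed sign among these. In mouse host against control the ranges were -0.32 to 0.15 for Hmgb2, -0.15 to 0.030 for Hmgn3 and -0.088 to 0.19 for Hmgn5. In graft they were -0.89 to 0.057 for Hmgb2, -0.046 to 0.75 for Hmgn2, -0.18 to 0.71 for Hmga1 and -0.13 to 0.089 for H2afx. Between controls they were -0.66 to 0.43 for Hmgb2, -0.33 to 0.074 for Hmgn2, -0.11 to 0.19 for Hmgn3 and -0.38 to 0.030 for Hmgn5. On Mki67 they were -0.041 to 0.0022 for Hmgn1, -0.049 to 0.037 for Hmgn5 and -0.048 to 0.075 for Hmga1.

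Other sign changes were Hmgb1 in mouse host against control (0.023 with effective lengths, 0.068 on log2(TPM + 1)) and between controls (0.0046 with effective lengths), Hmga1 at -1.29 and H2afx at 0.077 in graft with voom, and the Mki67 slopes of Hmgb1 (-0.030, mouse host alone), Hmgn5 (0.0017 with mitosis genes, 0.041 without the 2 farthest libraries) and Hmga1 (-0.053 with mitosis genes, -0.033 in mouse host alone).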
